A study of Mus musculus with 8 samples.

Results

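A set of 9 genes encodes enzymes that carry tryptophan through kynurenine towards NAD, and their mRNA was described in the liver of mice fed a high-fructose diet (HFrD) and of mice fed a normal diet (ND). The 9 genes were Tdo2, Ido2, Afmid, Kmo, Kynu, Aadat, Haao, Acmsd and Qprt, and they are 9 of the 22564 genes in the deposited mRNA table. They were chosen by their place in the pathway with the difference between these same 8 libraries already known, so their values are given as a description, with no p. All 9 were found by symbol, and all 9 passed the filter on low values.

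The mice were male C57BL/6J, an inbred strain, purchased at an age of 10-11 weeks, before the 2 weeks of diet. HFrD mice 1, 2, 5 and 7 received a diet with 70% kcal from carbohydrate, 20% kcal from protein and 10% kcal from fat for 2 weeks, and ND mice 1, 3, 6 and 7 received the normal diet over the same period. Each library was made from the liver of 1 mouse, and RNA-Seq was performed after removal of ribosomal RNA. The values are the authors' FPKM, fragments per kilobase of transcript scaled to library size, so levels of different genes can be set side by side.

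Tryptophan breakdown begins when a dioxygenase opens the indole ring, and in liver this step is mostly the work of tryptophan 2,3-dioxygenase. Kynurenine then goes on to 3-hydroxykynurenine and 3-hydroxyanthranilate, or leaves the route by transamination to kynurenic acid. Near the end, an unstable intermediate either closes into quinolinate, from which NAD is made, or is decarboxylated and burned.

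The promoters of Tdo2, Aadat and Qprt are shown because they belong to the first enzyme of the route, to the enzyme with the largest difference between the diets and to the enzyme that takes quinolinate into NAD synthesis. Each is the 250 bases before the RefSeq start on GRCm38.p6, written 5′ to 3′ on the strand of the gene, at chr3:81975729-81975978 on the minus strand for Tdo2, chr8:60505874-60506123 on the plus strand for Aadat and chr7:127122030-127122279 on the minus strand for Qprt. Capitals mark matches to any of 6 short motifs, searched on both strands and chosen after the sequences had been seen.
Tdo2: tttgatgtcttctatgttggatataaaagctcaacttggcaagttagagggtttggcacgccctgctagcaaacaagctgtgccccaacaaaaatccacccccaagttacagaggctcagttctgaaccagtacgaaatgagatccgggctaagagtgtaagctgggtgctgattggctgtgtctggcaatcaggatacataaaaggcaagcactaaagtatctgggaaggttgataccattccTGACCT
Aadat: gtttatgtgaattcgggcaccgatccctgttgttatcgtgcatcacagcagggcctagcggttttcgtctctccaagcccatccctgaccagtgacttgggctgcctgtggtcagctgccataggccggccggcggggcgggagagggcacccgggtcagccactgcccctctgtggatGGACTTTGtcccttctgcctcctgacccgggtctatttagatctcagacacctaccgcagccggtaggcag
Qprt: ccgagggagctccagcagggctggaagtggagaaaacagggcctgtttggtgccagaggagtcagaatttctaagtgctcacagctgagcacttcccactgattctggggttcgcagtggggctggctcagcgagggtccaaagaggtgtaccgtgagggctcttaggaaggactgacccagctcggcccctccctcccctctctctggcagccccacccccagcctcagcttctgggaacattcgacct

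RefSeq windows of this kind were at hand for 7 of the 9 genes, that is for all but Ido2 and Kynu. The RefSeq start is not always the GENCODE start. By the GENCODE positions given below, the windows of Tdo2, Haao and Kmo lie wholly inside the gene, and those of Aadat and Qprt mostly so. The Tdo2 window held the nuclear receptor half-site AGGTCA on the minus strand, starting 6 bases before the start, and the same letters were found in the windows of Haao and Acmsd, so in 3 of 7. Of 32851 promoters of the same length, 14.0% held AGGTCA. The Aadat window held CAAAGTCC, an element bound by HNF4, on the minus strand 71 bases before the start, as did 1.20% of all promoters and 1 of the 7. The glucocorticoid receptor half-site TGTTCT (16.1% of all promoters) was found in the Haao window alone. CACGTG, the E-box (6.02% of all promoters), TCACNCCAC, the sterol regulatory element (1.05%), and TTGCNNAA, the C/EBP element (9.56%), were in 0 of the 7. None of the matches overlapped another, and the Qprt, Kmo and Afmid windows held none of these letters. The base composition also differed, with 46.4% G and C in the Tdo2 window, 61.2% in that of Aadat and 60.8% in that of Qprt, against a median of 52.4% over all promoters.

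Tdo2, Ido2, Afmid, Kmo and Aadat, 5 of the 9 genes, were lower in every HFrD mouse than in any ND mouse. The other 4, Kynu, Haao, Acmsd and Qprt, had higher means in HFrD mice, and of these Qprt alone was separated between the diets. So 6 of the 9 did not overlap between the diets, against 16.6% of the 11476 genes tested. In the fit over all genes 5 of the 9 were called lower in HFrD mice (3.69% of all genes) and 1 was called higher (5.44% of all genes), which is 6 called against 9.12% of all genes in either direction. A gene was called at an adjusted p under 0.05 from limma on log2(FPKM + 1). These counts rest on the contrast with which the genes were chosen, so nothing is read from them. The median log2 fold change was -0.45 over the 9 genes and 0.01 over all genes tested.

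**Figure D1:**
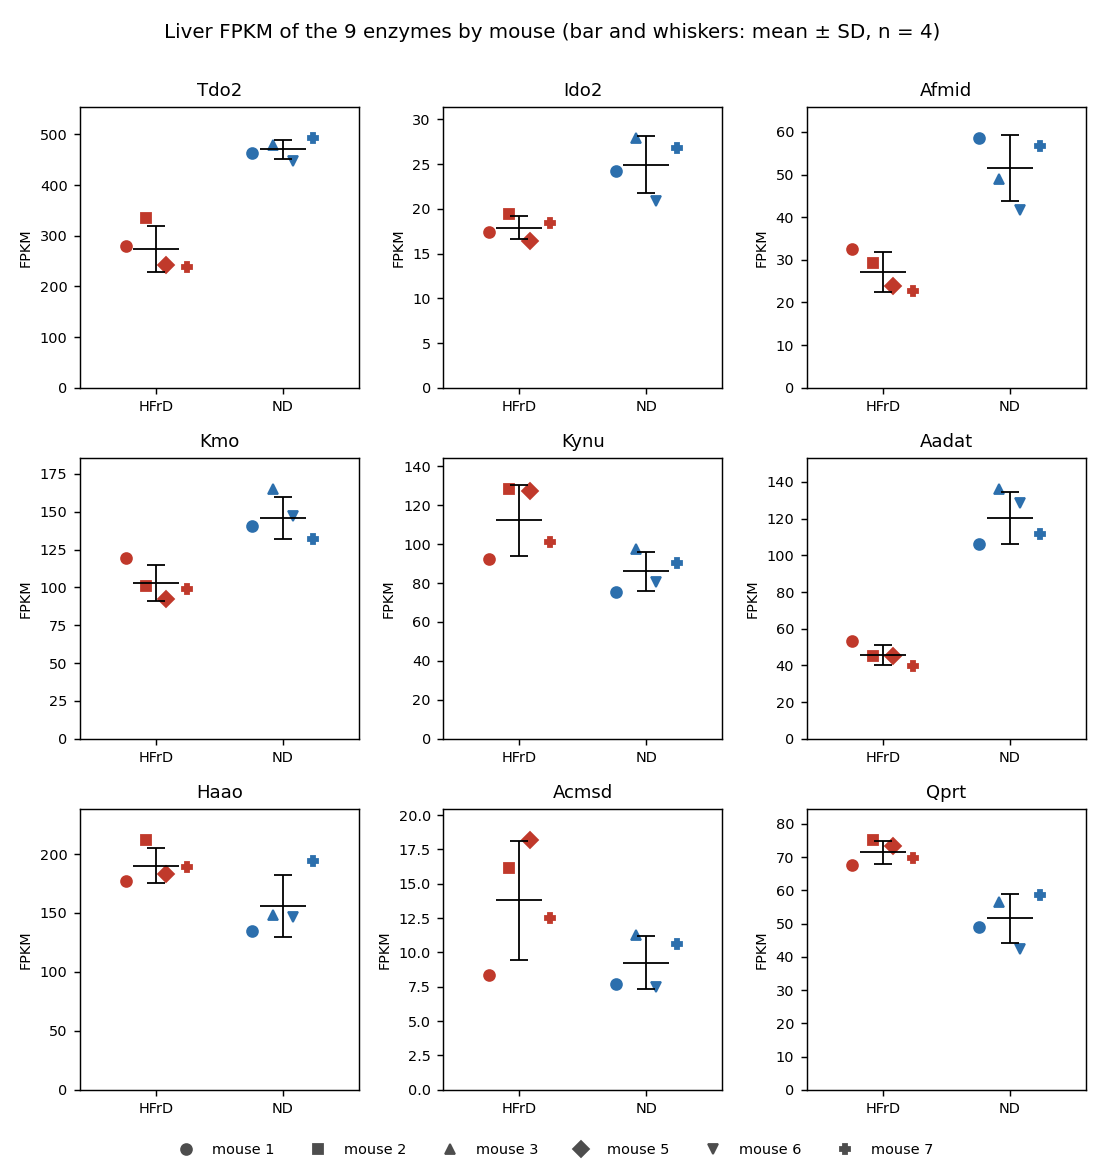
FPKM (vertical axes, from 0) of the 9 enzymes in each HFrD mouse (red, left) and each ND mouse (blue, right), with marker shapes for the mouse numbers and the mean ± SD of 4 mice in black. Tdo2, Ido2, Afmid, Kmo and Aadat lie lower in all 4 HFrD mice than in all 4 ND mice, Qprt lies higher, and Kynu, Haao and Acmsd overlap.

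Tdo2 (chromosome 3, 81957090 to 81976202, minus strand), the heme dioxygenase that opens the route, was the most abundant of the 9, at the 98.7th percentile of mean FPKM over the genes tested. It had 279, 336, 241 and 239 FPKM in HFrD mice 1, 2, 5 and 7, against 464, 478, 447 and 492 FPKM in ND mice 1, 3, 6 and 7. HFrD mouse 2 stood nearest to the ND mice and still lay well below the lowest of them. The mean was 273.9 ± 45.1 FPKM in HFrD mice and 470.2 ± 19.7 FPKM in ND mice (SD, n = 4 each), so the HFrD mean was 58.2% of the ND mean. The log2 fold change was -0.79 with a standard error (SE) of 0.11.

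Ido2 (chromosome 8, 24531892 to 24576333, minus strand), a further enzyme able to open the indole ring, had 17.4, 19.4, 16.4 and 18.4 FPKM in the HFrD mice, against 24.2, 27.9, 20.8 and 26.8 FPKM in the ND mice. The diets did not overlap, but only a narrow gap separated HFrD mouse 2 and ND mouse 6. The HFrD mean was 71.7% of the ND mean, and the log2 fold change was -0.45 (SE 0.11). Its neighbour in function, Ido1, was listed at 0 in all 8 libraries. Within a library, Tdo2 exceeded Ido2 by 13.0 to 17.3 times in HFrD mice and by 17.1 to 21.4 times in ND mice, and these ratios overlapped.

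Afmid (chromosome 11, 117825924 to 117839908, plus strand) encodes the formamidase that releases kynurenine from N-formylkynurenine. Its values were 32.7, 29.2, 23.9 and 22.8 FPKM in the HFrD mice, against 58.5, 49.0, 41.8 and 56.8 FPKM in the ND mice. Every HFrD mouse was below every ND mouse, at 52.6% of the ND mean and a log2 fold change of -0.90 (SE 0.14). The authors' locus for Afmid also holds Tk1, Syngr2 and Gm20708. By GENCODE, Tk1 overlaps Afmid on the other strand and Gm20708 on the same strand, while Syngr2 does not overlap it. A strand setting for the counting is not given in the sources used here, and no strand setting would separate Gm20708 from Afmid. Reads of Afmid and of these genes may thus not be fully separated. Tk1, thymidine kinase, had 16.2, 5.82, 7.91 and 9.60 FPKM in the HFrD mice, against 22.6, 14.4, 16.3 and 15.0 FPKM in the ND mice. Tk1 was thus less abundant than Afmid in each library, and its log2 fold change was -0.80 (SE 0.25, adjusted p = 0.078, and 0.0089 without HFrD mouse 1). Syngr2 had 23.8, 23.3, 18.8 and 19.9 FPKM in the HFrD mice, against 19.1, 18.4, 21.6 and 22.0 FPKM in the ND mice, so that it came close to Afmid in HFrD mouse 7, at a log2 fold change of 0.07 (SE 0.10, adjusted p = 0.71). Gm20708 reached at most 0.853 FPKM.

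Kmo (chromosome 1, 175620381 to 175662116, plus strand), the mitochondrial monooxygenase that makes 3-hydroxykynurenine, had 120, 101, 92.3 and 98.8 FPKM in the HFrD mice, against 141, 165, 147 and 132 FPKM in the ND mice. HFrD mouse 1 was the highest of its diet and ND mouse 7 the lowest of its own, and the diets did not overlap. The HFrD mean was 70.4% of the ND mean, with a log2 fold change of -0.50 (SE 0.10). Kmo shares the authors' locus with Fh1, fumarate hydratase, on the other strand. Fh1 lay at 90.0, 116, 133 and 127 FPKM in the HFrD mice, against 98.5, 117, 91.0 and 88.2 FPKM in the ND mice, and its log2 fold change was 0.23 (SE 0.13, adjusted p = 0.32).

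Aadat (chromosome 8, 60505932 to 60545677, plus strand), the mitochondrial aminotransferase that turns kynurenine into kynurenic acid and also acts on the lysine product aminoadipate, differed most among the 9. Aadat had 53.1, 45.4, 45.1 and 39.7 FPKM in the HFrD mice, against 106, 136, 128 and 112 FPKM in the ND mice. The highest HFrD value was below the lowest ND value by a gap wider than the whole range of the HFrD mice. Its HFrD mean was 38.0% of the ND mean and its log2 fold change -1.38 (SE 0.11), the 32nd most negative of the 11476 genes tested, where Afmid ranked 111 and Tdo2 ranked 150.

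Kynu (chromosome 2, 43555329 to 43682715, plus strand), the kynureninase that yields 3-hydroxyanthranilate, had 92.5, 128, 127 and 101 FPKM in the HFrD mice, against 75.3, 97.7, 80.8 and 90.1 FPKM in the ND mice. The diets overlapped because HFrD mouse 1 lay below ND mouse 3. The HFrD mean was 131% of the ND mean, at a log2 fold change of 0.37 (SE 0.13), and Kynu was not called. Without HFrD mouse 1 the fold change was 0.46 and Kynu was called, which held in only 1 of the 8 fits without 1 mouse.

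Haao (chromosome 17, 83831156 to 83847963, minus strand), the dioxygenase that opens the ring of 3-hydroxyanthranilate, had 177, 212, 183 and 189 FPKM in the HFrD mice, against 134, 148, 147 and 194 FPKM in the ND mice. ND mouse 7 was higher than 3 of the 4 HFrD mice, while the other ND mice were below all of them. The HFrD mean was 122% of the ND mean and the log2 fold change 0.30 (SE 0.12). Haao was not called over the 8 libraries, and without ND mouse 7 it was called at a fold change of 0.41, in only 1 of the 8 fits without 1 mouse.

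Acmsd (chromosome 1, 127729413 to 127767978, plus strand) encodes the decarboxylase that draws the pathway away from quinolinate, and it was the least abundant of the 9. Its values were 8.36, 16.1, 18.2 and 12.5 FPKM in the HFrD mice, against 7.72, 11.3, 7.45 and 10.6 FPKM in the ND mice. HFrD mouse 1 lay among the ND mice and the other HFrD mice above them. The HFrD mean was 149% of the ND mean, with a log2 fold change of 0.50 and, at 0.22, the largest SE of the 9. Acmsd was not called over the 8 libraries. It was called at a fold change of 0.70 without HFrD mouse 1, in only 1 of the 8 fits without 1 mouse. An antisense gene, 2900009J06Rik, overlaps it.

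Qprt (chromosome 7, 127107114 to 127122226, minus strand), the transferase that makes nicotinate mononucleotide from quinolinate, was higher in every HFrD mouse than in any ND mouse. It had 67.5, 75.1, 73.4 and 69.8 FPKM in the HFrD mice, against 49.0, 56.5, 42.4 and 58.5 FPKM in the ND mice. The HFrD mice lay close together, at 71.4 ± 3.44 FPKM, whereas the ND mice were spread over 51.6 ± 7.35 FPKM (SD, n = 4 each). The HFrD mean was 138% of the ND mean and the log2 fold change 0.47 (SE 0.11).

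Leaving out 1 mouse at a time, Tdo2, Afmid, Kmo and Aadat were called in all 8 fits, with Kmo only just under the threshold without ND mouse 3. The genes were chosen with this contrast known, so nothing is read from these calls either. Ido2 was called in 3 of 8 and lost its call without HFrD mouse 5 or 7 or without ND mouse 1, 3 or 7, with fold changes of -0.53 to -0.40 over the 8 fits. Qprt was called in 4 of 8 and lost its call without HFrD mouse 2, 5 or 7 or without ND mouse 1, with fold changes of 0.38 to 0.53. HFrD mouse 1 was the HFrD mouse nearest to the ND mean for 7 of the 9 genes, all but Tdo2 and Ido2, and ND mouse 7 was the ND mouse nearest to the HFrD mean for 3 of the 9, Kmo, Haao and Qprt, as was ND mouse 6 for 3 others, Tdo2, Ido2 and Afmid. With both HFrD mouse 1 and ND mouse 7 left out, 4 of the 9 were called lower (Ido2 was not) and 3 higher (Haao, Acmsd and Qprt). Over all genes, that fit called 701 lower and 655 higher, against 423 and 624 with all mice. The choice was made after seeing the data. By its construction it widens the gap for genes in which these mice lie nearest to the other diet. The same holds for a gene called only when the 1 mouse nearest to the other diet is left out. Over all genes, 634 were called lower and 659 higher without HFrD mouse 1 alone, and 443 and 581 without ND mouse 7 alone.

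**Figure D2:**
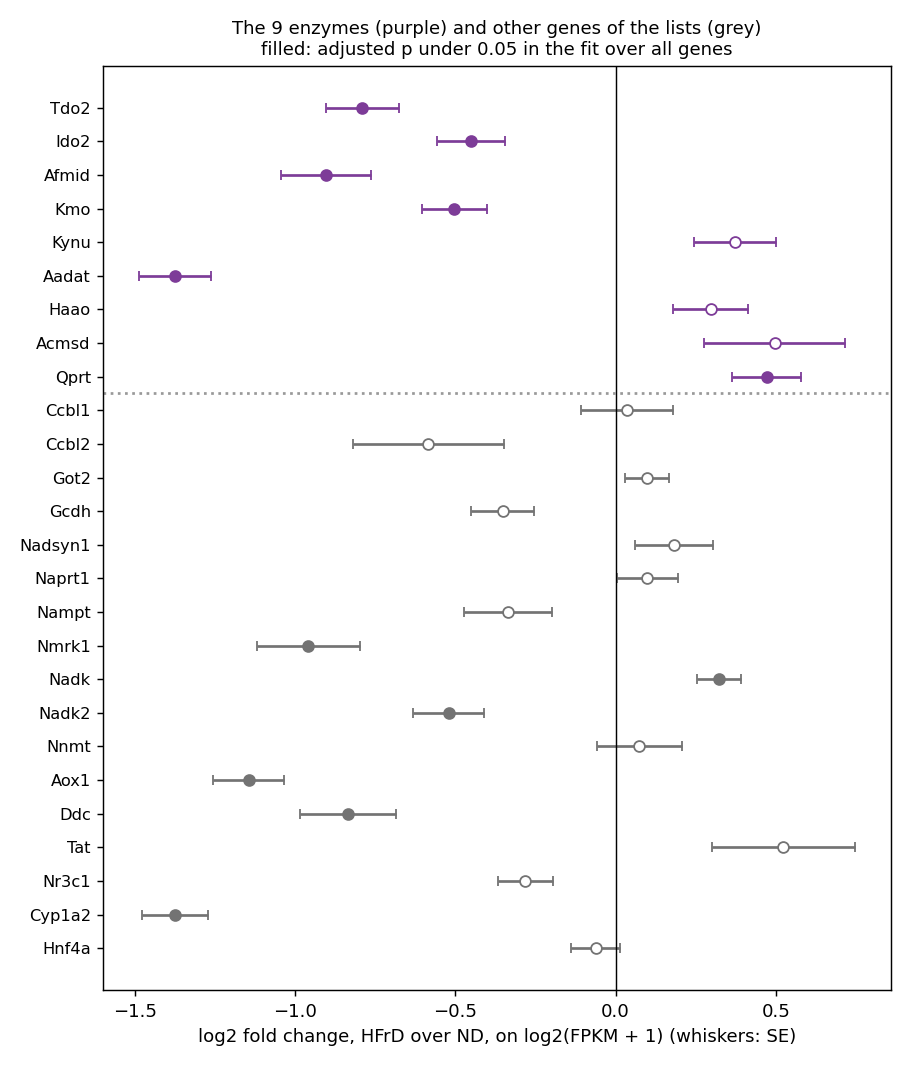
Log2 fold change of HFrD over ND on the log2(FPKM + 1) scale (horizontal axis) with its SE, for the 9 enzymes (purple) and 17 other genes of the lists (grey), with filled points for genes called in the fit over all genes. Tdo2, Ido2, Afmid, Kmo and Aadat lie left of 0 between -1.38 and -0.45, while Kynu, Haao, Acmsd and Qprt lie right of it between 0.30 and 0.50.

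Unequal differences of neighbouring steps were also described as ratios of FPKM within a library, which no scaling of the libraries can move. Aadat and Kynu both act on kynurenine or its hydroxylated form, and the ratio of Aadat to Kynu was 0.574, 0.354, 0.354 and 0.393 in HFrD mice 1, 2, 5 and 7, against 1.41, 1.39, 1.59 and 1.24 in ND mice 1, 3, 6 and 7. Aadat was thus the more abundant mRNA in each ND mouse and Kynu in each HFrD mouse. The ratio of Kmo to Aadat, the oxidation and the transamination of kynurenine, was 2.05 to 2.49 in HFrD mice and 1.15 to 1.33 in ND mice. Both genes were lower in HFrD mice, Aadat by more.

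Across the length of the route, the ratio of Qprt to Tdo2 averaged 0.265 ± 0.0388 in HFrD mice and 0.109 ± 0.0113 in ND mice (SD, n = 4 each), without overlap. The ratio of Haao to Kmo was 1.48 to 2.10 in HFrD mice and 0.898 to 1.47 in ND mice, so that the diets met almost exactly at HFrD mouse 1 and ND mouse 7. At the branch between NAD and oxidation, the ratio of Qprt to Acmsd was 8.07, 4.65, 4.04 and 5.58 in the HFrD mice, against 6.35, 5.02, 5.69 and 5.52 in the ND mice. The ND values lay within the range of the HFrD values. HFrD mouse 1 lay above all ND mice, HFrD mice 2 and 5 below them, and HFrD mouse 7 among them. The means were 5.59 ± 1.78 in HFrD mice and 5.64 ± 0.549 in ND mice (SD, n = 4 each), and HFrD mouse 1 set both the highest value and most of the spread. The ratios were chosen after the values had been seen and carry no test.

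**Figure D3:**
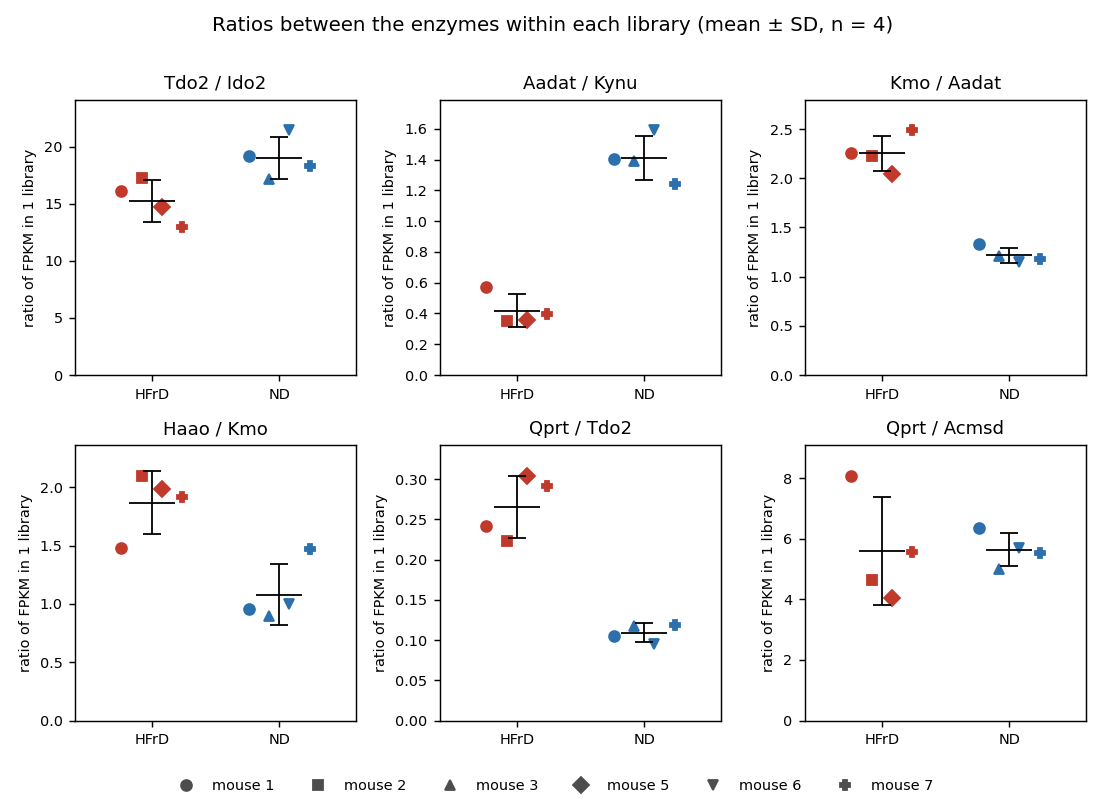
Ratio of the FPKM of a pair of enzymes within the same library (vertical axes, from 0) for HFrD mice (red, left) and ND mice (blue, right), with the mean ± SD of 4 mice in black. Aadat over Kynu is 0.354 to 0.574 in HFrD mice and 1.24 to 1.59 in ND mice, whereas Qprt over Acmsd and Tdo2 over Ido2 overlap between the diets.

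Among mice of the same diet, some pairs of the enzymes varied together. After the mean of each diet was subtracted from log2(FPKM + 1), Kynu and Acmsd had a Pearson r of 0.94 over the 8 libraries, Ido2 and Qprt of 0.85 and Kmo and Aadat of 0.80. Over the 6 pairs among Kynu, Haao, Acmsd and Qprt the median r was 0.63, with a range of 0.47 to 0.94. Over the 10 pairs among the 5 genes lower in HFrD mice it was 0.24, with a range of -0.09 to 0.80. Over the 20 pairs across these groups it was 0.09, with a range of -0.52 to 0.85. Whether these medians differ from those of other genes was not tested. All pairs share the same libraries and scaling, so the coefficients describe these 8 mice only. By the same measure over the 6620 genes that averaged 5 FPKM or more, Tdo2 was most like Iqsec1 (r 0.98), Irf9 (0.98) and Mapk6 (0.96). Kmo was most like Psma7 (0.98), Swt1 (0.97) and Nampt (0.97), and Acmsd most like Rnh1 (0.99), Galt (0.97) and Hs3st3b1 (0.96). These genes were picked as the highest of 6620 coefficients over only 8 libraries. Whether such values exceed those found by chance was not tested, so nothing is read from them.

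Other genes of the pathway were taken from lists drawn up by role, 74 genes in all, of which 61 could be tested. In these lists 3 genes were called higher and 5 called lower, and the median log2 fold change was 0.02, close to the 0.01 of all genes tested. An unadjusted p under 0.05 from limma was found for 23 of the 61, and for 2925 of all 11476 genes tested. The counts at that p in the single lists below are to be read beside this share. Over all genes, 624 were called higher and 423 lower, so that 59.6% of the calls were higher in HFrD mice. That share was 51.2% after quantile normalization and 47.3% with equal library medians.

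Of the enzymes on side branches and on the glutarate branch, 6 of 7 were tested and 0 were called by limma, with 2 at an unadjusted p under 0.05. Gcdh, the glutaryl-CoA dehydrogenase on which tryptophan and lysine breakdown converge, had 221, 189, 169 and 176 FPKM in the HFrD mice, against 255, 250, 229 and 227 FPKM in the ND mice. The diets did not overlap, and the log2 fold change was -0.35 (SE 0.10, adjusted p = 0.052). It was called without HFrD mouse 1 (adjusted p = 0.012), and over all 17 alternatives its adjusted p was 0.012 to 0.13. It shares the authors' locus with Syce2, on the other strand. Got2, an aspartate aminotransferase that can also act on kynurenine, averaged 134 ± 3.45 FPKM in HFrD mice and 125 ± 4.69 FPKM in ND mice (SD, n = 4 each), at a log2 fold change of 0.10 (adjusted p = 0.40).

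Ccbl1 and Ccbl2 encode kynurenine aminotransferases other than Aadat, and neither was called over the 8 libraries. Ccbl1 (Kyat1) averaged 49.3 FPKM in HFrD mice and 48.3 FPKM in ND mice. Ccbl2 (Kyat3) had 105, 40.0, 59.8 and 55.1 FPKM in the HFrD mice, against 88.8, 106, 82.8 and 92.0 FPKM in the ND mice. HFrD mouse 1 lay among the ND mice for Ccbl2 and the other HFrD mice below them, and the log2 fold change was -0.59 (SE 0.24, adjusted p = 0.15). Without HFrD mouse 1 Ccbl2 was called, at -0.84 (adjusted p = 0.0070), and in the other 7 fits without 1 mouse it was not. Both genes were named after their values were seen.

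Of 12 genes of NAD synthesis and salvage, 9 were tested, 1 was called higher and 2 were called lower. Nmrk1, the kinase that brings nicotinamide riboside into NAD, fell to 14.3, 10.4, 9.49 and 11.4 FPKM in the HFrD mice, against 25.7, 28.3, 21.3 and 17.6 FPKM in the ND mice, at a log2 fold change of -0.96 (SE 0.16, adjusted p = 0.0074). Its call held in all 8 fits without 1 mouse. The kinases that turn NAD into NADP differed in direction.

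Nadk, the cytosolic NAD kinase, had 54.1, 54.8, 56.2 and 52.8 FPKM in the HFrD mice, against 43.6, 43.2, 44.7 and 41.7 FPKM in the ND mice (log2 fold change 0.32, SE 0.07, adjusted p = 0.019). Nadk2, the mitochondrial NAD kinase, had 54.4, 47.0, 41.9 and 38.9 FPKM in the HFrD mice, against 61.2, 68.9, 69.6 and 61.9 FPKM in the ND mice (log2 fold change -0.52, SE 0.11, adjusted p = 0.018). Neither gene overlapped between the diets. Nadk lost its call without HFrD mouse 2 or 5 or without ND mouse 1 or 3 (adjusted p up to 0.055), and Nadk2 without HFrD mouse 5 or without ND mouse 3 or 6 (up to 0.057). Nampt, the enzyme that salvages nicotinamide and one of the genes most like Kmo within the diets, averaged 17.8 ± 3.36 FPKM in HFrD mice and 22.6 ± 2.96 FPKM in ND mice (SD, n = 4 each), at -0.34 (adjusted p = 0.16). Without HFrD mouse 1 its adjusted p was 0.037.

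Nicotinamide is cleared by methylation and then oxidation. Nnmt, the methyltransferase, averaged 83.3 FPKM in HFrD mice and 80.3 FPKM in ND mice (adjusted p = 0.77). Aox1, aldehyde oxidase, which oxidizes the methylated product among other substrates, fell to 14.4, 12.0, 12.8 and 12.9 FPKM in the HFrD mice, against 35.5, 31.6, 28.0 and 25.7 FPKM in the ND mice (log2 fold change -1.15, SE 0.11, adjusted p = 0.00075). The call of Aox1 held in all 8 fits without 1 mouse.

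Among 17 NAD-consuming enzymes, 15 were tested, 2 were called higher and 0 lower. Parp3, a mono-ADP-ribosyltransferase, had 11.7, 16.1, 13.1 and 17.8 FPKM in the HFrD mice, against 6.65, 10.7, 5.19 and 8.77 FPKM in the ND mice (log2 fold change 0.85, SE 0.20, adjusted p = 0.028). It shares the authors' locus with Rrp9, on the other strand. Sirt6, a nuclear NAD-dependent deacylase, stayed low throughout, at 2.24, 2.01, 0.996 and 1.72 FPKM in the HFrD mice, against 0.503, 0.974, 0.717 and 0.595 FPKM in the ND mice (adjusted p = 0.036). The most abundant of the list, Sirt3 and Parp9, were not called, with log2 fold changes of -0.29 and 0.14. Parp3 was called in 3 of the 8 fits without 1 mouse, where its adjusted p was up to 0.077, and Sirt6 in 1 of 8, that without HFrD mouse 5, where its adjusted p was otherwise up to 0.094. With all mice but no filter on low values neither was called (adjusted p = 0.060 for Parp3 and 0.056 for Sirt6), and after quantile normalization Sirt6 was not called (0.057).

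Of 14 genes for tryptophan transport and for its other uses, 11 were tested, 1 was called lower and 0 higher. Ddc, the decarboxylase that makes tryptamine and serotonin, fell to 18.9, 14.8, 17.0 and 13.4 FPKM in the HFrD mice, against 22.2, 33.0, 28.9 and 34.2 FPKM in the ND mice (log2 fold change -0.84, SE 0.15, adjusted p = 0.0093), and it was called in all 8 fits without 1 mouse. Tph1 and Tph2, the hydroxylases that begin serotonin synthesis, were listed at 0 in all libraries. Inmt, which methylates tryptamine, averaged 313 ± 19.1 FPKM in HFrD mice and 409 ± 90.0 FPKM in ND mice, and Maob, a monoamine oxidase, averaged 52.6 ± 3.25 FPKM in HFrD mice and 63.4 ± 6.73 FPKM in ND mice (SD, n = 4 each). Neither was called (adjusted p = 0.15 and 0.11), and Inmt was called at an adjusted p of 0.0498 without ND mouse 3.

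Kynu, Aadat and Ddc need pyridoxal phosphate, the active form of vitamin B6. Of 2 genes that make or break down this cofactor, 1 was tested, 0 were called by limma and 1 had an unadjusted p under 0.05. Pdxk, pyridoxal kinase, had 12.8, 8.08, 8.23 and 9.63 FPKM in the HFrD mice, against 13.8, 14.6, 13.3 and 12.6 FPKM in the ND mice (log2 fold change -0.47, SE 0.14, adjusted p = 0.061). HFrD mouse 1 lay among the ND mice and the other HFrD mice below them, and Pdxk was called without it, at an adjusted p of 0.0075. Over all 17 alternatives its adjusted p was 0.0075 to 0.15. Pdxp, the phosphatase that breaks the cofactor down, was at or near 0 and not tested.

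**Figure D4:**
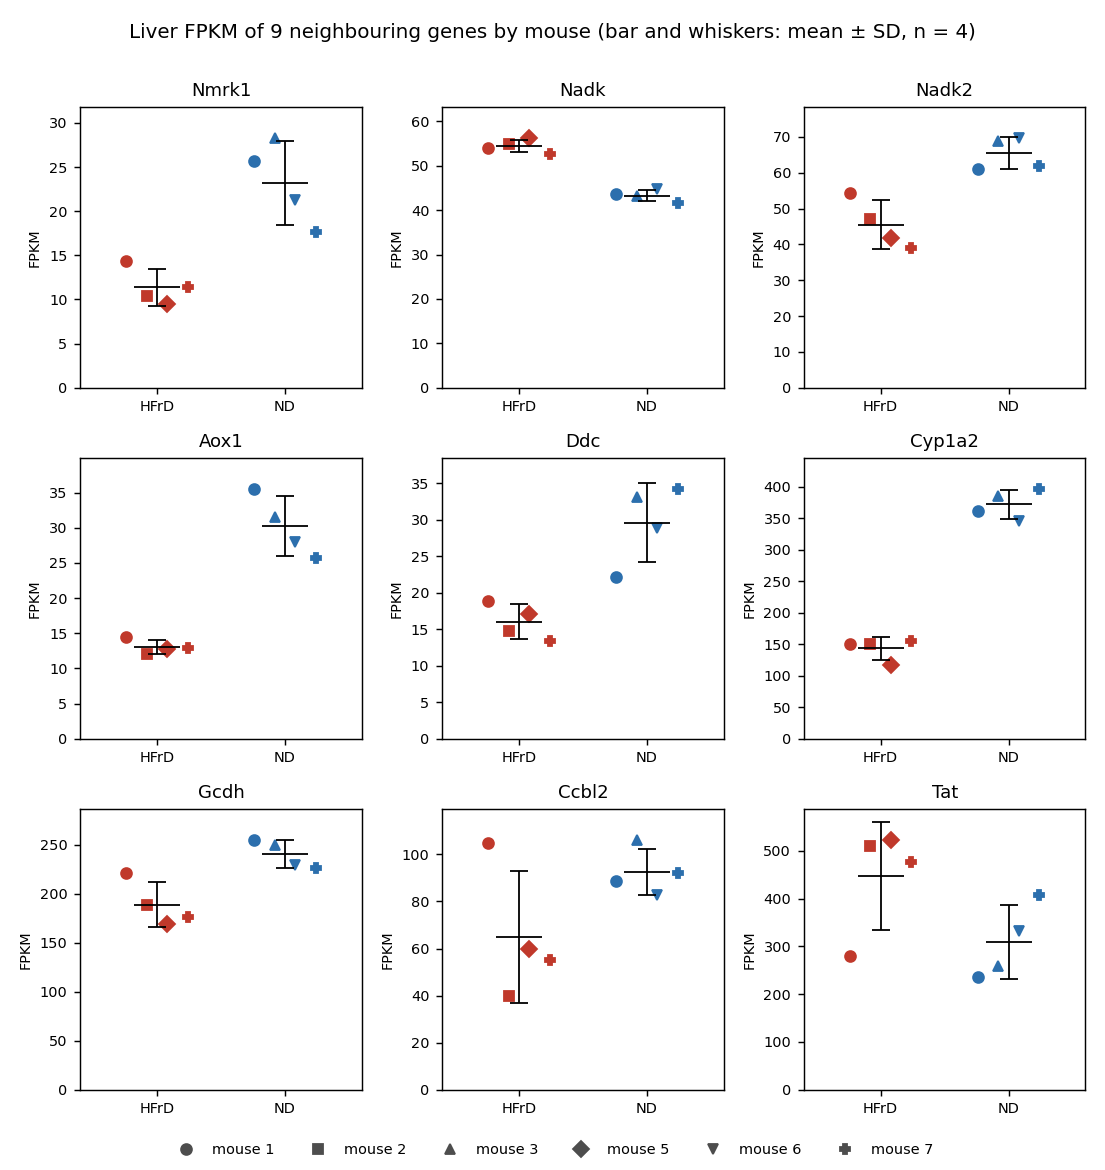
FPKM (vertical axes, from 0) of 9 genes around the pathway in each HFrD mouse (red, left) and each ND mouse (blue, right), with the mean ± SD of 4 mice in black. Nmrk1, Nadk2, Aox1, Ddc, Cyp1a2 and Gcdh lie lower in all HFrD mice than in all ND mice and Nadk lies higher, while Ccbl2 and Tat overlap through HFrD mouse 1.

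Over all 11476 genes tested, 2925 had an unadjusted p under 0.05 by limma, 1640 of them higher and 1285 lower in HFrD mice. Tdo2 is a textbook target of glucocorticoids, and of 8 genes of the glucocorticoid response 0 were called by limma. An unadjusted p under 0.05 was found for 5 of the 8, 4 of them higher and 1 lower in HFrD mice. Tat, tyrosine aminotransferase, had 281, 509, 522 and 476 FPKM in the HFrD mice, against 237, 258, 333 and 407 FPKM in the ND mice. Its log2 fold change was 0.52 (SE 0.22, adjusted p = 0.17), and without HFrD mouse 1 it was called at 0.73. The rest of the 5 were Per1 at 1.04 (SE 0.32, adjusted p = 0.072), Tsc22d3 at 0.86 (SE 0.28, adjusted p = 0.081), Sgk1 at 0.73 (SE 0.29, adjusted p = 0.14) and the receptor gene Nr3c1 at -0.28 (SE 0.08, adjusted p = 0.066). With 1 mouse left out, Per1 was called without ND mouse 7 (adjusted p = 0.032), Tsc22d3 and Nr3c1 without HFrD mouse 1 (0.041 and 0.04998), and Sgk1 in no fit. Of these 5, Nr3c1 alone did not overlap between the diets. Pck1, a gluconeogenic enzyme, averaged 562 FPKM in HFrD mice and 526 FPKM in ND mice.

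Kynurenine and kynurenic acid can activate the aryl hydrocarbon receptor. In the list of this receptor and its targets, 4 of 7 genes were tested and 1 was called, Cyp1a2, the cytochrome P450 that takes up most of the list's FPKM. Cyp1a2 fell to 151, 150, 117 and 155 FPKM in the HFrD mice, against 361, 385, 345 and 396 FPKM in the ND mice (log2 fold change -1.38, SE 0.10, adjusted p = 0.00025), with the call held in all 8 fits without 1 mouse. Arnt, the receptor's partner, averaged 19.5 FPKM in HFrD mice and 20.9 FPKM in ND mice (adjusted p = 0.61).

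Among 5 liver transcription factors, 0 were called by limma and 0 had an unadjusted p under 0.05. Hnf4a averaged 119 FPKM in HFrD mice and 124 FPKM in ND mice, and Cebpa averaged 87.8 FPKM in HFrD mice and 85.4 FPKM in ND mice.

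Depth relative to ND mouse 1 was 1.13 to 1.49 in HFrD libraries and 0.991 to 1.17 in ND libraries, and 14053 to 14392 genes were above 0 in HFrD libraries and 13755 to 13973 in ND libraries. The hepatocyte markers Alb, Ttr, Apob, Cps1 and Serpina1a summed to 38456 to 46777 FPKM in HFrD libraries and 31474 to 40051 FPKM in ND libraries. Alb made up most of each sum, at a mean of 33791 FPKM in HFrD mice and 27975 FPKM in ND mice (log2 fold change 0.28, not called). Ttr, 1 of the 5, was called higher (0.53), a call held in 1 of the 8 fits without 1 mouse. Apob, Cps1 and Serpina1a had log2 fold changes of -0.24, -0.03 and -0.13 and were not called. The median over the 5 was -0.03. All 5 Kupffer cell markers (Emr1, Clec4f, Vsig4, Cd5l and Marco) were called higher, summing to 102 to 166 FPKM in HFrD libraries and 56.8 to 88.1 FPKM in ND libraries. Calls were lost without HFrD mouse 7 or ND mouse 1 for Emr1 (adjusted p up to 0.053) and in 6 of the 8 fits without 1 mouse for Vsig4 (up to 0.12), the exceptions being those without HFrD mouse 2 or ND mouse 3. Markers of other leukocytes summed to 5.99 to 7.44 FPKM in HFrD libraries and 4.03 to 5.55 FPKM in ND libraries, with Ptprc the most abundant. For endothelium the sums were 63.7 to 79.3 FPKM in HFrD libraries and 53.5 to 64.8 FPKM in ND libraries, for stellate cells 96.3 to 104 FPKM in HFrD libraries and 72.7 to 100.2 FPKM in ND libraries, and for cholangiocytes 3.04 to 3.85 FPKM in HFrD libraries and 2.76 to 4.38 FPKM in ND libraries. Dcn made up most of the stellate cell sums, at a mean of 71.5 FPKM in HFrD mice and 57.6 FPKM in ND mice (log2 fold change 0.32). The other stellate cell markers, Lrat, Reln and Des, had log2 fold changes of -0.21, -0.12 and -0.09. Of the stellate cell markers 0 were called. The kidney markers Lrp2, Umod and Slc34a1 were at or near 0, and Kap was highest in ND mouse 1, at 6.24 FPKM. Kmo and Kynu are also transcribed in macrophages, and the part of the Kupffer cell markers in their values was not tested. In whole liver, fewer cells of a type and less RNA per cell cannot be told apart.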

How the data were processed

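RNA-Seq of liver was analysed in 8 mice, 4 on the HFrD and 4 on the ND, 1 library each. The deposited table gives FPKM for 22564 genes, which the authors made after trimming with Cutadapt (v1.9.3) and alignment to mm10 with Hisat2 (v2.0.4). The submitters' processing notes also list Cufflinks and Cuffdiff, whose versions, annotation release and strand setting are not given in the sources used here. For the library kit, NEBNext directional is named in the paper and TruSeq stranded in the labels. Columns with the authors' own fold changes and p-values were not used.

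Groups and mouse numbers come from the labels. The 9 genes, the other lists and the tests were chosen with earlier results of these data known. A pseudocount of 1 was added to the FPKM before taking log2, genes whose mean over the 8 libraries was under 0.5 FPKM were removed, and the remaining 11476 were fitted with limma (3.58.1, R 4.3.3) using eBayes, a variance trend and Benjamini-Hochberg adjustment. Tests are two-sided and set the difference between the diet means against the spread between these mice, moderated over all genes. With the pseudocount, differences of weakly expressed genes come out smaller than they are. No p is given for the 9 genes. Some lists are shown without genes that are not reported here. Kyat1, Kyat3, Naprt and Adgre1 stand in the table as Ccbl1, Ccbl2, Naprt1 and Emr1.

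The genes named are the 9, from every list the called genes and the 2 with the highest mean FPKM, and the 3 genes most correlated with each of Tdo2, Kmo and Acmsd. Outside this rule, and after their values were seen, genes at the loci of Afmid and Kmo, Ccbl1, Ccbl2, the glucocorticoid genes with an unadjusted p under 0.05, some genes listed at 0 and the remaining cell type markers are also named, and a plot shows Nadsyn1 and Naprt1. Lists covered side branches, NAD synthesis, clearance and use, tryptophan supply, vitamin B6, the glucocorticoid response, the aryl hydrocarbon receptor, liver transcription factors and markers of cell types. Positions are those of GENCODE M21 on GRCm38 (mm10), and promoters those of RefSeq. The absolute depth is unknown, so no counting error is given, and relative depth came from the ratio to ND mouse 1 that was most frequent among low FPKM values. The fit was tested on simulated data. It was repeated with the pseudocount at 0.1, without the filter, with the filter at 1 FPKM, after quantile normalization, with equal library medians, with array weights, with no variance trend, with the mouse number as a block, with each library left out, and with 2 libraries left out together. Python (3.11.15) with pandas (2.3.3), numpy (2.4.6) and, for plots, matplotlib (3.10.9) was used for the tables.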

Additional observations from a re-analysis of the deposited data

Results flagged for a closer look

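In 7 of 114 groups of 4 mice, each the values of 1 named gene in 1 diet, a single mouse lay far from the other 3 by Dixon's ratio of its gap to the range of the group (above its 95% critical value). Chance gives about 1 in 20 such groups, and the share here was 6.14%. None of the 9 enzymes was among them. For Cyp1a2, HFrD mouse 5 had 117 FPKM, where the other HFrD mice had 150.2 to 155 FPKM (ratio 0.881). For Psma7, one of the genes most like Kmo within the diets, HFrD mouse 1 had 83.0 FPKM and the other HFrD mice 68.1 to 70.6 FPKM (0.831). ND mouse 6 stood apart for Iqsec1, a gene most like Tdo2, at 4.95 FPKM where the others had 5.84 to 6.01 FPKM (0.843), for Ptprc at 2.84 FPKM where they had 3.91 to 4.12 FPKM (0.832) and for Krt19 at 1.68 FPKM where they had 0.181 to 0.433 FPKM (0.832). Kap, a kidney transcript, was at 6.24 FPKM in ND mouse 1 and listed at 0 in the other ND mice (1). Pdxp was at 0.0632 FPKM in ND mouse 6 and at or near 0 in the other ND mice (1).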

How the results depend on the processing

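Under the 8 other settings with all mice, the 5 enzymes called lower, the 1 called higher and the direction of all 9 were those of the report. The 9 were chosen with this contrast known, so nothing is read from their calls or directions in any of these fits, the replicate block included. With 1 mouse left out, 4 to 5 enzymes were called lower and 0 to 3 higher, and without both HFrD mouse 1 and ND mouse 7 (chosen after seeing the data) 3 were called higher. Of the other pathway genes, 8 were called lower with equal library medians, 10 without those 2 mice and 4 to 10 with 1 mouse left out. The numbers called higher were 1 with no filter, 5 with array weights, 6 without those 2 mice and 0 to 4 with 1 mouse left out. Over all genes, 183 to 634 were called lower and 340 to 659 higher with 1 mouse left out. Without those 2 mice, 701 were called lower and 655 higher. The cause of these differences was not tested, and the fits that left mice out also had fewer mice. Among 55 named genes, 0 turned round a call in any fit.

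HFrD and ND mice share only the numbers 1 and 7, and same-numbered mice did not deviate together (r 0.08 and -0.01). With the replicate block, 5 of the 9 enzymes were called lower and 1 higher, as without it, and over all genes 440 were called lower and 653 higher.

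FPKM carry no read counts, and 4 mice per diet leave standard errors of 0.10 to 0.22 on the log2 scale for the 9 enzymes. Afmid and Kmo share their loci with other genes. Only mRNA was measured, and neither enzyme activity nor any metabolite was analysed here.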
